A study of Mus musculus with 6 samples.

Results

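The subject is 10 transcripts of late spermatids, the haploid male germ cells that become sperm, measured in RNA from sorted clear cells of the mouse epididymis. They are Prm1, Prm2, Tnp1, Tnp2, Odf1, Smcp, Akap4, Gapdhs, Ldhc and Oaz3, and they were found by symbol in the deposited RPKM table (reads scaled by gene length and library size), where each of the 10 names matched 1 row. The count files hold 37583 genes in all. The libraries came from clear cells of the caput (the part nearest the testis), the corpus and the cauda (the part farthest from it), with 2 libraries per region, called 1 and 2 as in the sample titles. All groups share their genotype and handling: untreated transgenic mice aged 12 weeks in which the ATP6V1B1 gene promoter drives EGFP, cells purified by 2 rounds of sorting, and 12 epididymides pooled per library. That promoter is active in proton-secreting cells, so the sort defines the cells only as far as EGFP does, and the labels do not say whether the 2 pools of a region came from different mice.

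In late spermatids the histones of the nucleus are exchanged first for transition proteins and then for protamines, small arginine-rich proteins that pack the DNA. Their messenger RNAs are made early, stored and translated later, and remnants of them stay in sperm after transcription has stopped. Sperm leave the testis and pass through the caput, the corpus and the cauda, where they are stored. Clear cells are epithelial cells of that duct which secrete protons and take up material from its lumen.

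Reads assigned to genes came to between 18887128 and 24700717 per library, and levels called CPM are reads per 1000000 of that total after TMM scaling (trimmed mean of M values). Intervals are exact 95% counting intervals. They and the floor of 3 reads take in counting error alone, since reads and not molecules marked with identifiers were counted. Of 10 clear cell markers, 9 had over 3 reads in every library. Their summed level was 5183 and 4786 CPM in caput 1 and 2, 1551 and 1691 CPM in corpus 1 and 2, and 475 and 613 CPM in cauda 1 and 2. The exception was the anion exchanger gene Slc26a4, with 128 reads in caput 2 and 0 in the other libraries. The libraries of a region were not copies of each other. The chi-square between the pair was taken over genes with at least 10 reads in the pair. Divided by its degrees of freedom, it was 17.18 for caput, 9.57 for corpus and 12.17 for cauda.

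Sequences upstream of the genes are shown because 3 of the 4 chromatin genes lie side by side and had like values in the libraries, whereas Smcp had another pattern. Tnp2, Prm3, Prm2 and Prm1 are consecutive genes on chromosome 16 in RefSeq. Each sequence is the 250 bases before the RefSeq gene start, 5′ to 3′ in the direction of the gene, from the GRCm38.p6 assembly: chr16:10796824-10797073 for Prm1, chr16:10792106-10792355 for Prm2, chr16:10788656-10788905 for Tnp2 and chr3:92589074-92589323 for Smcp, all on the minus strand. Capitals mark matches on either strand to TATAA and to TGACNTCA, a cAMP response element with any base at N.
Prm1: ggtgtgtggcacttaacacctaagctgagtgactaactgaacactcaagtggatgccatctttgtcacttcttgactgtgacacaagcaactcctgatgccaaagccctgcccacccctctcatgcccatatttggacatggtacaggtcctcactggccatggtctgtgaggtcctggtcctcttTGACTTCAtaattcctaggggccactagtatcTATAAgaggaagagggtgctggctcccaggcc
Prm2: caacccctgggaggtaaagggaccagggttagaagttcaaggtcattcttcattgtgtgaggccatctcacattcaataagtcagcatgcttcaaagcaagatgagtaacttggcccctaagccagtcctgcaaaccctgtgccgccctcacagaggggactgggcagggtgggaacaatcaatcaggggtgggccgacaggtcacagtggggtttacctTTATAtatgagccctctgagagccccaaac
Tnp2: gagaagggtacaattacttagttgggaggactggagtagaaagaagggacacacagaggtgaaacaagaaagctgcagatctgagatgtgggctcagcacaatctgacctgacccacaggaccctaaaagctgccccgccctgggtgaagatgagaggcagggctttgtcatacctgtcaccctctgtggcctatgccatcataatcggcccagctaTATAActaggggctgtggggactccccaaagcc
Smcp: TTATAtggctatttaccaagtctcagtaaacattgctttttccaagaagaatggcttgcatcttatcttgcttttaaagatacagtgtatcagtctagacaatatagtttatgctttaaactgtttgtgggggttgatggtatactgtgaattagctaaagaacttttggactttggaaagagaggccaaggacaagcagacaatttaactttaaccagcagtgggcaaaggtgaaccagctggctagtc
The Prm1 window held TATAA 32 bases before the start and TGACTTCA 64 bases before it. The Tnp2 window held TATAA 33 bases before the start, and the Prm2 window held its reverse complement TTATA 30 bases before. In the Smcp window the sole match was a TTATA at its far end, 250 bases before the start. Tnp1 on chromosome 1 and Akap4 on chromosome X, not shown, also had few or no reads outside the caput libraries. No window of these 2 genes held TATAA, so the word did not go with the pattern throughout. RefSeq windows were at hand for 8 of the 10 genes, of which 5 held TATAA, 4 held TGACNTCA and 1 held the word TGACG. Of all 32851 windows of that length, 22.78%, 7.49% and 17.77% did in that order. Akap4, Gapdhs and Ldhc had 2 windows each, and these counts are of genes whereas the shares are of windows. These matches are a description of the letters and say nothing of what is bound there.

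The 10 transcripts together were a small part of every library, and the amount differed widely between libraries of 1 region. They summed to 992 and 6317 reads in caput 1 and 2, 59 and 1187 reads in corpus 1 and 2, and 683 and 1614 reads in cauda 1 and 2. As a share of the reads in genes this was 0.00402% in caput 1 and 0.0305% in caput 2, 0.000312% in corpus 1 and 0.00548% in corpus 2, and 0.00302% in cauda 1 and 0.00686% in cauda 2. Caput 2 held the most and corpus 1 the least, and the other 4 libraries lay between. In all 3 regions library 2 held more of these reads than library 1, though in cauda Oaz3 and Prm2, among others, were lower in library 2. What the libraries numbered 2 have in common is not labelled. In these bulk samples, fewer cells of a type and less RNA per cell cannot be told apart. The members fell into 3 patterns: transcripts with few or no reads outside the caput libraries, transcripts found throughout but with at most 3 reads in corpus 1, and Gapdhs, which had 53 to 148 reads everywhere.

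**Figure D1:**
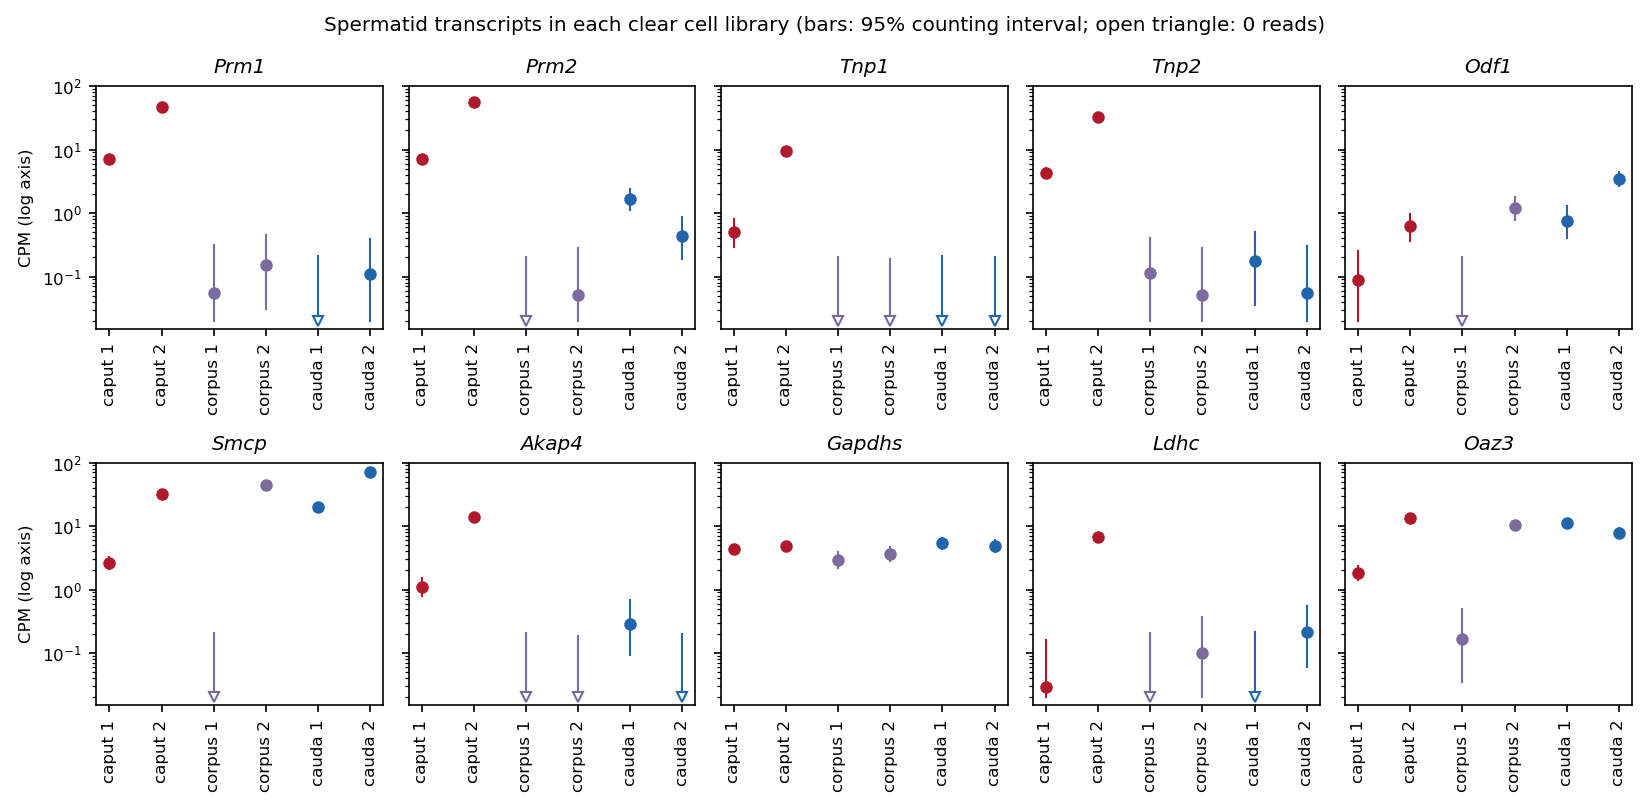
Level of each of the 10 transcripts in each library, in CPM on a log axis, coloured by region (caput red, corpus violet, cauda blue). Points are single libraries, bars are 95% counting intervals, and open triangles stand for 0 reads. The 4 chromatin transcripts, Akap4 and Ldhc are highest in caput 2, Smcp and Oaz3 are at 0 and 3 reads in corpus 1 alone, and Gapdhs lies between 2.97 and 5.35 CPM throughout.

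The chromatin transcripts marked the caput libraries. Prm1 (ENSMUSG00000022501), which encodes protamine 1, had 15.9 and 101 RPKM in caput 1 and 2 (244 and 1349 reads), 0.118 and 0.320 RPKM in corpus 1 and 2 (1 and 3 reads), and 0 and 0.230 RPKM in cauda 1 and 2 (0 and 2 reads). Prm2 (ENSMUSG00000038015), which encodes protamine 2, had 12.0 and 92.2 RPKM in caput 1 and 2 (243 and 1633 reads), 0 and 0.0810 RPKM in corpus 1 and 2 (0 and 1 read), and 2.69 and 0.697 RPKM in cauda 1 and 2 (29 and 8 reads). For both protamines the 2 caput libraries were above the 4 others, and the cauda reads of Prm2 exceeded the floor of 3 in each cauda library. Tnp2 (ENSMUSG00000043050), which encodes transition protein 2, had 8.19 and 60.6 RPKM in caput 1 and 2 (147 and 952 reads), 0.202 and 0.0912 RPKM in corpus 1 and 2 (2 and 1 reads), and 0.314 and 0.0981 RPKM in cauda 1 and 2 (3 and 1 reads). Tnp1 (ENSMUSG00000026182), which encodes transition protein 1, had 1.25 and 23.4 RPKM in caput 1 and 2 (17 and 280 reads) and no read in corpus or cauda. The floor of 3 reads, taken as the limit for a count of 0, was 0.168 and 0.152 CPM in corpus 1 and 2 and 0.174 and 0.163 CPM in cauda 1 and 2. Tnp1 shares exon sequence with a gene on the opposite strand in the GENCODE M21 annotation, and no source used here states that reads were counted by strand, so its caput reads are uncertain to that extent.

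The tail transcripts did not move as a group. Smcp (ENSMUSG00000074435), whose cysteine-rich protein coats the mitochondria of the sperm midpiece, had 3.34 and 40.3 RPKM in caput 1 and 2 (89 and 940 reads), 0 and 54.2 RPKM in corpus 1 and 2 (0 and 882 reads), and 24.5 and 86.1 RPKM in cauda 1 and 2 (348 and 1302 reads). It was the most abundant of the 10 per length in corpus 2 and in both cauda libraries, and it was not detected in corpus 1. Odf1 (ENSMUSG00000061923), a protein of the outer dense fibres along the tail, had 0.0829 and 0.568 RPKM in caput 1 and 2 (3 and 18 reads), 0 and 1.09 RPKM in corpus 1 and 2 (0 and 24 reads), and 0.674 and 3.11 RPKM in cauda 1 and 2 (13 and 64 reads). Like Smcp it was highest in cauda 2 and at 0 in corpus 1. Akap4 (ENSMUSG00000050089), the scaffold of the fibrous sheath that anchors protein kinase A, had 0.367 and 4.49 RPKM in caput 1 and 2 (38 and 407 reads), 0 RPKM in both corpus libraries, and 0.0906 and 0 RPKM in cauda 1 and 2 (5 and 0 reads). Akap4 therefore followed the chromatin transcripts and not the other tail transcripts.

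The enzymes and regulators showed all 3 patterns. Oaz3 (ENSMUSG00000028141), the germ cell antizyme that limits polyamine synthesis, had 1.68 and 12.3 RPKM in caput 1 and 2 (62 and 398 reads), 0.147 and 8.95 RPKM in corpus 1 and 2 (3 and 202 reads), and 9.81 and 6.81 RPKM in cauda 1 and 2 (193 and 143 reads). Ldhc (ENSMUSG00000030851), the lactate dehydrogenase subunit of germ cells, had 0.0194 and 4.43 RPKM in caput 1 and 2 (1 and 200 reads), 0 and 0.0635 RPKM in corpus 1 and 2 (0 and 2 reads), and 0 and 0.137 RPKM in cauda 1 and 2 (0 and 4 reads). Oaz3 was low in corpus 1 as Smcp was, and Ldhc was high in caput 2 only. Gapdhs (ENSMUSG00000061099), the glyceraldehyde-3-phosphate dehydrogenase of the sperm tail, had 2.79 and 3.02 RPKM in caput 1 and 2 (148 and 140 reads), 1.82 and 2.22 RPKM in corpus 1 and 2 (53 and 72 reads), and 3.26 and 2.99 RPKM in cauda 1 and 2 (92 and 90 reads). It supplied 53 of the 59 reads of the 10 transcripts in corpus 1. The other 9 summed to 6 reads in that library.

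Both Oaz3 and Gapdhs overlap exons of genes on the opposite strand in GENCODE M21, so unless strand was used, reads over the shared stretch are uncertain. Reads in several genes were left out of the counts, so such reads may have been lost as well as added. The partners of Oaz3 are Mrpl9, a mitochondrial ribosomal protein gene, and Tdrkh, and that of Gapdhs is Tmem147os. Mrpl9 had 1014 reads and Tdrkh 189 reads in corpus 1, where Oaz3 had 3, so these partners gave Oaz3 at most 3 reads there. For Gapdhs no library was near 0, and the part of its reads that comes from the partner was not tested. The body-wide counterparts of Ldhc and Oaz3 were abundant in every library. Ldha, the main lactate dehydrogenase subunit of muscle, had 286 and 282 RPKM in caput 1 and 2, 136 and 165 RPKM in corpus 1 and 2, and 129 and 171 RPKM in cauda 1 and 2. Ldhb, the heart subunit, ranged from 118 RPKM in corpus 1 to 891 RPKM in cauda 1, the antizyme gene Oaz1 from 37.8 to 72.9 RPKM, and Oaz2 from 14.6 to 25.2 RPKM. Per length, Ldhc in caput 2 was thus far below Ldha in the same library. Gapdh was listed at 2.02 to 3.78 RPKM, close to Gapdhs, but Gapdh has many near-identical pseudogene copies and reads without a unique position were not counted, so its level is uncertain.

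Per length, the order of the members differed between regions. In caput it ran Prm1, Prm2, Tnp2, Smcp, Tnp1, Oaz3, Gapdhs, Akap4, Ldhc and Odf1, from a mean of 58.2 ± 59.8 RPKM for Prm1 to 0.325 ± 0.343 RPKM for Odf1 (SD, n = 2 libraries). All 9 neighbouring pairs in that order had overlapping ranges, with caput 2 far above caput 1 for every member but Gapdhs. In corpus Smcp led at 27.1 ± 38.3 RPKM, ahead of Oaz3 at 4.55 ± 6.22 RPKM and Gapdhs at 2.02 ± 0.288 RPKM (SD, n = 2 libraries each), and 7 of 9 neighbouring pairs overlapped. In cauda Smcp at 55.3 ± 43.5 RPKM, Oaz3 at 8.31 ± 2.12 RPKM and Gapdhs at 3.13 ± 0.191 RPKM (SD, n = 2 libraries each) came first with no overlap between neighbours. Below them Gapdhs, Odf1 and Prm2 overlapped in turn, and 6 of the 9 neighbouring pairs in cauda did so.

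The make-up of the spermatid reads differed between caput and the other regions. The 4 chromatin transcripts gave 651 of 992 reads in caput 1 and 4214 of 6317 reads in caput 2, but 5 of 1187 reads in corpus 2, 32 of 683 reads in cauda 1 and 11 of 1614 reads in cauda 2. Smcp alone gave 74.3% of the reads in corpus 2 (interval 71.7% to 76.8%), 51.0% in cauda 1 (47.1% to 54.8%) and 80.7% in cauda 2 (78.7% to 82.6%), against 8.97% in caput 1 (7.27% to 10.9%) and 14.9% in caput 2 (14.0% to 15.8%). The ratio of Smcp to Prm1 reads was 0.365 in caput 1 and 0.697 in caput 2, and it was 294 in corpus 2 and 651 in cauda 2, on 3 and 2 Prm1 reads. In cauda 1, 348 Smcp reads stood beside no Prm1 read. In corpus 2 and cauda the spermatid reads were thus mostly Smcp, and in caput mostly protamines and Tnp2.

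**Figure D2:**
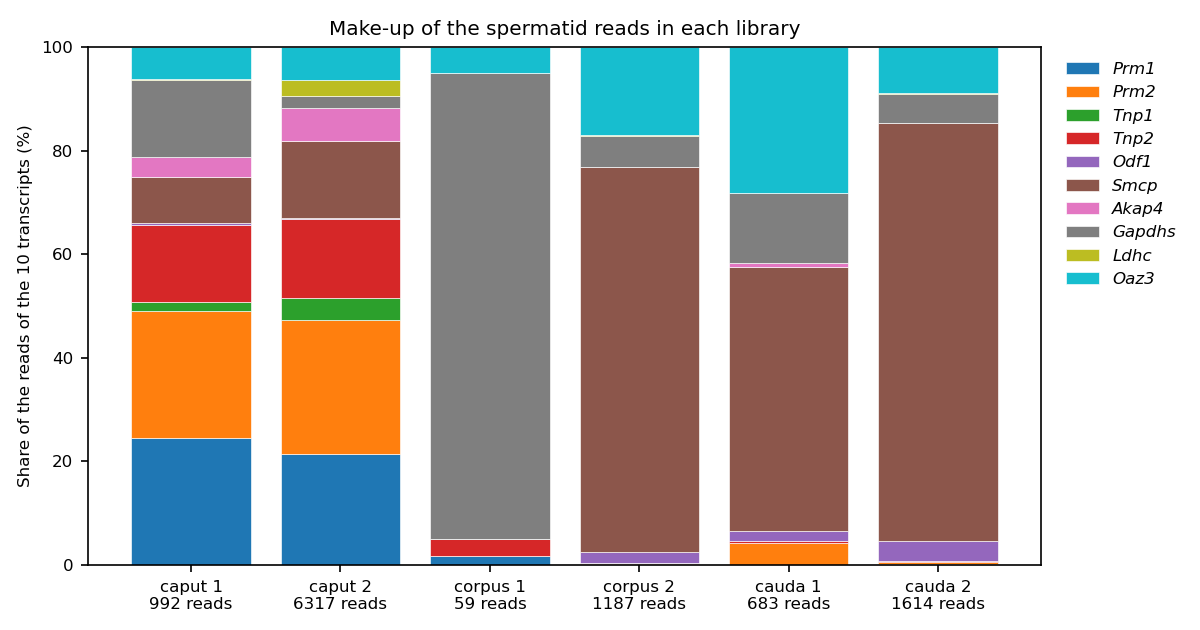
Share of each transcript among the reads of the 10, in percent, in each library, with the number of those reads under each bar. Chromatin transcripts (blue, orange, green and red) make up the larger part of both caput bars, Smcp (brown) of the corpus 2 and cauda bars, and Gapdhs (grey) gives 53 of the 59 reads in corpus 1.

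Within caput, the proportions among Prm1, Prm2 and Tnp2 were close although the amounts were not. Prm2 made up 54.8% of the protamine reads in caput 2 (interval 53.0% to 56.6%) and 49.9% in caput 1 (45.4% to 54.4%). Tnp2 made up 41.4% of the Tnp2 and Prm1 reads in caput 2 (39.4% to 43.4%) and 37.6% in caput 1 (32.8% to 42.6%). The share of Tnp1 among the Tnp1 and Prm1 reads was 17.2% in caput 2 (15.4% to 19.1%) and 6.51% in caput 1 (3.84% to 10.2%), and that of Ldhc among the Ldhc and Prm1 reads was 12.9% in caput 2 (11.28% to 14.68%) and 0.41% in caput 1 (0.01% to 2.25%). The counting intervals overlapped for Tnp2 and for Prm2 and did not overlap for Tnp1 and Ldhc. These intervals compare 2 libraries and not 2 conditions.

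Caput 2 had more of all 10 transcripts than caput 1. The fold of caput 2 over caput 1 in CPM was 6.44 for Prm1 (counting interval 5.61 to 7.41), 7.83 for Prm2 (6.83 to 8.99), 7.54 for Tnp2 (6.33 to 9.03), 7.48 for Oaz3 (5.71 to 9.93), 12.3 for Smcp (9.89 to 15.5) and 12.5 for Akap4 (8.93 to 17.9). It was larger for Tnp1 at 19.2 (11.8 to 33.4) and for Ldhc at 233 (41.3 to 9243), which rests on 1 read in caput 1. Odf1 gave 6.99 (2.04 to 37.0) on 3 reads in caput 1, and Gapdhs 1.10 (0.868 to 1.40). Among the 10459 genes with at least 5 CPM in a caput library, 51 were at least 4-fold higher in caput 2, or 0.488%, and 8 of those 51 were members, namely all but Odf1 and Gapdhs, which were under 5 CPM in both. The median gene at that level had a fold of 0.961, 37.36% of genes at that level were higher in caput 2, and 3 genes were at least 4-fold higher in caput 1. The 51 were not all spermatid genes. They also held the immunoglobulin genes Ighm, Igkc and Iglc2 and the B cell genes Cd79a and Ms4a1.

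Other gene lists moved between the caput libraries as well. Of 12 genes of caput principal cells, the secretory cells of the duct, 10 were higher in caput 2. Of all genes with at least 5 CPM in a caput library, 37.36% were. The 12 had a median fold of 2.47 and a range of 0.751 to 4.96. Among them Lcn8, a lipocalin secreted in the caput, had 27136 reads in caput 2 against 9439 in caput 1, and at most 12 in any other library. By edgeR 10 of the 12 were higher and 2 lower in caput than in cauda, where 33.9% and 33% of all genes were. In caput against corpus 10 were higher and 2 lower, where 33.2% and 31.8% of all genes were. The 10 were thus higher in caput 2 and in caput, as the chromatin transcripts were, but some kept a high level elsewhere. Defb20 had 197 and 209 CPM in corpus 1 and 2, and Gpx5 had 607 and 603 CPM in cauda 1 and 2. The whole list, in which Crisp1 and Adam7 are lower in caput, summed to 8282 and 10242 CPM in caput 1 and 2, 47165 and 57966 CPM in corpus 1 and 2, and 82323 and 79073 CPM in cauda 1 and 2. The clear cell markers had a median fold of 0.916 over the 9 with reads in both libraries, and the 7 body-wide counterparts one of 0.975. By edgeR the clear cell markers too were higher in caput than in cauda, 9 of 9 tested, where 33.9% of all genes were. Against corpus 8 were higher in caput and 1 lower, where 33.2% and 31.8% of all genes were. The basal cell markers had a median fold of 1.35 over 6 genes. By edgeR 6 of 6 were higher in caput than in cauda, where 33.9% of all genes were. In caput against corpus 5 were higher and 1 lower, where 33.2% and 31.8% of all genes were. Among leukocyte genes, Ptprc, found on white blood cells in general, had 129 reads in caput 2 against 79 in caput 1, 32 and 61 reads in corpus 1 and 2, and 11 and 34 reads in cauda 1 and 2. The macrophage genes Cd68 and Csf1r had 60 and 21 reads in caput 2 against 106 and 93 in caput 1. Cd79a and Ms4a1, B cell genes added after their values were seen, had 248 and 232 reads in caput 2 against 55 and 11 in caput 1. The T cell gene Cd3e was at 0 in both caput libraries. The globin genes of red blood cells reached at most 5 reads in any library, but they have near-identical copies, and reads without a unique position were not counted. The part of these cells in the differences between libraries and regions was not tested.

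**Figure D3:**
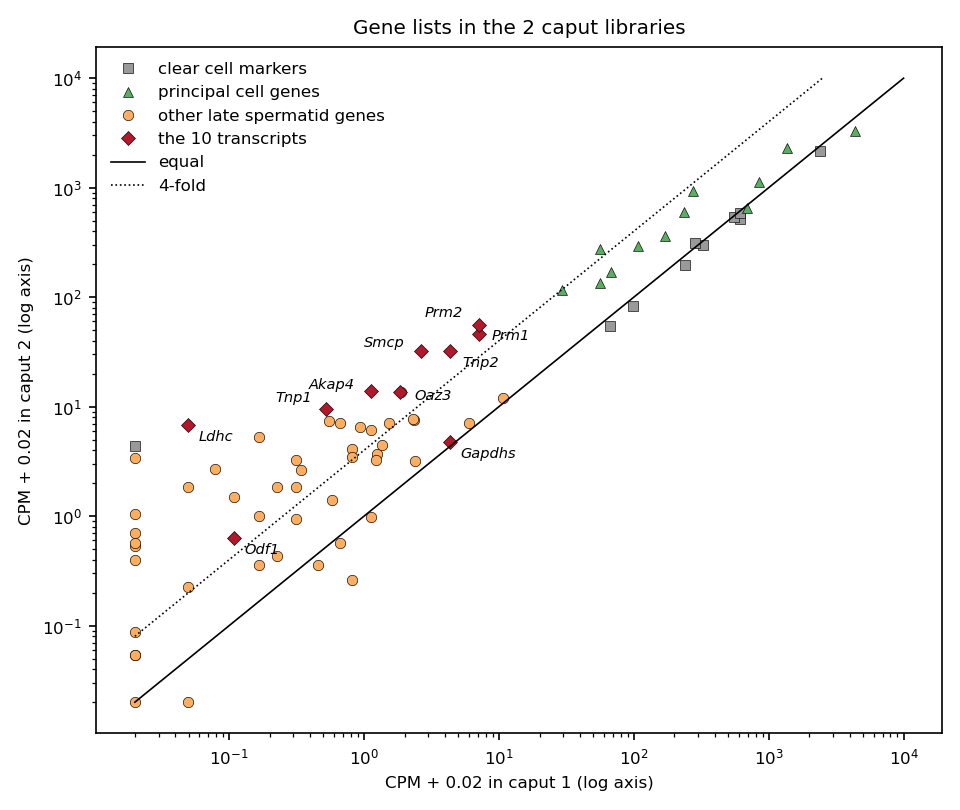
Level of each gene in caput 2 against caput 1, as CPM + 0.02 on log axes, for the 10 transcripts and 3 gene lists. Clear cell markers lie along the line of equal level except Slc26a4, which had no read in caput 1. The 10 transcripts lie above it, and all but Gapdhs above the 4-fold line.

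In corpus, the difference between the libraries was an absence in corpus 1. Smcp was at least 266-fold higher in corpus 2 against a floor of 3 reads in corpus 1, Oaz3 was 60.9-fold higher (counting interval 20.6 to 298) and Odf1 at least 7.24-fold higher. With a threshold chosen after the values were seen, 12 of the 12276 genes with at least 30 reads in corpus 2 had at most 3 in corpus 1, or 0.0978%, and Smcp and Oaz3 had the most reads of those 12 in corpus 2. Crisp2, which encodes a sperm tail and acrosome protein, with 93 reads in corpus 2 and 0 in corpus 1, and Pgk2, the phosphoglycerate kinase of germ cells, with 44 and 0 reads, were also among the 12. Genes outside the lists were there too, namely Muc15 with 46 and 1 reads, Rasgrp1 with 32 and 3, Fcer2a with 32 and 0, and Igkv16-104 with 30 and 0. The rest had only Rik names. Of the genes with at least 30 reads in corpus 1, 4 had at most 3 in corpus 2, or 0.0332%. The B cell genes Cd79a and Ms4a1 had 288 and 214 reads in corpus 2 against 182 and 135 in corpus 1. They had 165 and 80 reads in cauda 2 against 30 and 20 in cauda 1, so both were higher in library 2 of every region. The part of such cells was not tested. The clear cell markers summed to 1691 CPM in corpus 2 and 1551 CPM in corpus 1. In cauda the libraries differed less: Smcp was 3.51-fold higher in cauda 2 (3.11 to 3.96) and Odf1 4.61-fold (2.52 to 9.13), whereas the fold of cauda 2 over cauda 1 was 0.694 for Oaz3 (0.555 to 0.866) and 0.259 for Prm2 (0.102 to 0.580).

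The comparison of caput with cauda sets the ends of the duct against each other. Ldhc did not pass the filter on low counts, 9 members were tested, and 5 of these passed the filter only through their caput reads. Those 5 had to be higher in caput to be tested, so the number of calls is not support for a rise. The test (edgeR quasi-likelihood, Benjamini-Hochberg adjusted over 15816 genes) called 3 of the 9 higher in caput and 0 lower. Of all genes tested it called 66.9%, with 33.9% higher and 33% lower, so the share of members called higher was near that of all genes. The called members were Prm1, Prm2 and Tnp2. Prm1 averaged 26.6 ± 27.5 CPM in caput and 0.0545 ± 0.0770 CPM in cauda (SD, n = 2 libraries each), a pooled ratio of 446.5 (counting interval 123.4 to 3690) with an edgeR adjusted p of 0.0194. Prm2 averaged 31.4 ± 34.4 CPM in caput and 1.06 ± 0.884 CPM in cauda (SD, n = 2 libraries each), a log2 fold change of 4.90 ± 1.46 (approximate SE) with an edgeR adjusted p of 0.0462. Tnp2 averaged 18.4 ± 19.9 CPM in caput and 0.114 ± 0.0848 CPM in cauda (SD, n = 2 libraries each), a log2 fold change of 7.28 ± 1.76 with an edgeR adjusted p of 0.0256.

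These calls depended on the fit and on the libraries kept in it. DESeq2 called the same 3, with adjusted p of 8.08e-07 for Prm1, 0.00177 for Prm2 and 1.63e-06 for Tnp2. Other edgeR fits gave fewer or more calls. Without filtering on low counts only Prm1 was called, and with only the caput and cauda libraries in the fit none was. Without cauda 1 or cauda 2 the edgeR adjusted p was 0.0898 and 0.0798 for Prm1, 0.121 and 0.162 for Prm2, and 0.102 and 0.110 for Tnp2. Without corpus 1 or corpus 2, which changes the shared spread and also the filter (16804 and 16777 genes tested), it was 0.0902 and 0.0889 for Prm2 and 0.0550 and 0.0559 for Tnp2, so that Prm1 alone was called. Leaving out caput 1 or caput 2, which takes the spread between the caput libraries out of the fit, gave 6 and 5 called members, all higher in caput. Tnp1 and Akap4 joined in both cases, at adjusted p of 0.0153 and 0.0410 without caput 2, and Ldhc, at 9.76e-05, without caput 1.

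Of the members not called, Tnp1 was at least 55.5-fold higher in caput against a floor of 3 reads over both cauda libraries (edgeR adjusted p = 0.221). Akap4 averaged 7.50 ± 9.03 CPM in caput and 0.145 ± 0.206 CPM in cauda (SD, n = 2 libraries each; log2 fold change 5.67 ± 2.28, edgeR adjusted p = 0.125). For both, the caput libraries lay above the cauda libraries. Odf1 ran the other way, with 0.351 ± 0.372 CPM in caput and 2.12 ± 1.93 CPM in cauda (SD, n = 2 libraries each; log2 fold change -2.62 ± 1.53, edgeR adjusted p = 0.187). Smcp averaged 17.3 ± 20.8 CPM in caput and 45.6 ± 35.9 CPM in cauda (SD, n = 2 libraries each), with overlapping libraries and a log2 fold change of -1.41 ± 2.21 (edgeR adjusted p = 0.619). The log2 fold change was -0.31 ± 1.61 for Oaz3 and -0.17 ± 0.24 for Gapdhs (edgeR adjusted p = 0.879 and 0.549). Both signs turned under library totals, to 0.56 and 0.69, where the median of all genes moved to 0.89. Gapdhs was then called higher in caput (edgeR adjusted p = 0.0241). In 7 of the 9 tested members the caput and cauda libraries did not overlap, which was so for 84.1% of all genes tested.

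In caput against corpus Prm1, Prm2 and Tnp2 were called as well. These 3 of 9 tested members were higher in caput and 0 were lower, where edgeR called 65% of all genes, 33.2% higher and 31.8% lower. As before, 5 of the 9 had passed the filter only through their caput reads, the 3 called ones among them. Prm1 averaged 26.6 ± 27.5 CPM in caput and 0.104 ± 0.0679 CPM in corpus (SD, n = 2 libraries each; log2 fold change 7.89 ± 1.75, edgeR adjusted p = 0.0206). Prm2, with 1876 reads in caput and 1 in corpus, had a pooled ratio of 1113 (counting interval 199.5 to 43970, edgeR adjusted p = 0.0266). Tnp2, with 1099 and 3 reads in caput and corpus, had a pooled ratio of 217.3 (74.16 to 1055, edgeR adjusted p = 0.0248). Tnp1 was at least 58.7-fold and Akap4 at least 88.0-fold higher in caput (edgeR adjusted p = 0.219 and 0.0966). DESeq2 called Akap4 (adjusted p = 0.0132) besides Prm1, Prm2 and Tnp2. Where low-count genes were kept, or where only the caput and corpus libraries were fitted, 0 members were called. Without corpus 1 no member was called either, with adjusted p of 0.105, 0.124 and 0.109 for Prm1, Prm2 and Tnp2, nor without corpus 2, with 0.103, 0.124 and 0.121. Without caput 1 or caput 2, 6 and 5 members were called. The caput and corpus libraries did not overlap in 6 of the 9, against 83.3% of all genes tested.

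The transcripts that were low in corpus 1 gave no call between caput and corpus. Smcp averaged 17.3 ± 20.8 CPM in caput and 22.3 ± 31.6 CPM in corpus, and Oaz3 averaged 7.70 ± 8.32 CPM in caput and 5.199 ± 7.11 CPM in corpus (SD, n = 2 libraries each). Their log2 fold changes were -0.39 ± 2.23 and 0.54 ± 1.66 (edgeR adjusted p = 0.894 and 0.798), and that of Odf1 was -0.84 ± 1.63 (0.674). Without corpus 2, corpus 1 stands for its region with 0 reads of Smcp and Odf1, and both fitted signs turned to higher in caput. Without corpus 1 that of Oaz3 was -0.43. Gapdhs averaged 4.56 ± 0.311 CPM in caput and 3.31 ± 0.481 CPM in corpus (SD, n = 2 libraries each; log2 fold change 0.46 ± 0.24, edgeR adjusted p = 0.124). Caput against cauda and caput against corpus share the caput libraries, so their values are not independent.

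Between corpus and cauda edgeR called none of the 9 tested members, where it called 35.4% of all genes, 17.3% higher and 18% lower in corpus. At an unadjusted p under 0.05 there was 1, Gapdhs, and DESeq2 called 1, Prm2. Gapdhs averaged 3.31 ± 0.481 CPM in corpus and 5.13 ± 0.315 CPM in cauda (SD, n = 2 libraries each; log2 fold change -0.63 ± 0.25, edgeR adjusted p = 0.0777). Prm2, with 1 read in corpus and 37 in cauda, was 39.15-fold lower in corpus (counting interval 6.604 to 1588; edgeR adjusted p = 0.417, DESeq2 adjusted p = 0.0306), and edgeR called it too without caput 1 or caput 2 (adjusted p = 0.0248 and 0.00703). Smcp averaged 22.3 ± 31.6 CPM in corpus and 45.6 ± 35.9 CPM in cauda (SD, n = 2 libraries each; log2 fold change -1.02 ± 2.21, edgeR adjusted p = 0.777). The log2 fold change was -0.85 ± 1.68 for Oaz3 and -1.77 ± 1.504 for Odf1 (edgeR adjusted p = 0.750 and 0.427). Prm1, Tnp1 and Tnp2 had at most 3 reads in each of these libraries and no fold is given. The corpus and cauda libraries did not overlap in 2 of the 9, Prm2 and Gapdhs, against 69.5% of all genes tested.

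A wider list of 46 other late spermatid genes, of which 45 were measured, held genes of each pattern and some of none. Acrv1 had 129 and 244 reads in cauda 1 and 2, 1 and 6 reads in caput 1 and 2, and 3 and 0 reads in corpus 1 and 2. The 5 genes Acr, Spaca1, Tsga8, Catsper1 and Tuba3a had at most 3 reads in every library. In this list, 17 genes had over 3 reads in caput 1 or caput 2 and at most 3 in each corpus and cauda library. They included Prm3, the chromatin gene beside Prm2, with 53 reads in caput 2 and 7 in caput 1, the spermatid linker histone gene Hils1 with 154 and 5 reads, H1fnt, another spermatid linker histone gene, with 94 and 41 reads, and Akap3, a further fibrous sheath scaffold, with 98 and 0 reads. Another 12 genes had over 3 reads in every library. The most abundant of the list were among them: Spa17, a sperm surface protein gene, at 10.7 and 12.0 CPM in caput 1 and 2, 85.7 and 80.1 CPM in corpus 1 and 2, and 76.4 and 59.7 CPM in cauda 1 and 2, the channel subunit gene Catsper2 at 6.01 to 30.1 CPM, and Meig1, a gene needed for spermatid manchette function, at 0.528 to 27.7 CPM. A further 5 genes had over 3 reads in corpus 2 and at most 3 in corpus 1. They were Crisp2 with 93 and 0 reads, Pgk2 with 44 and 0, Spata18 with 16 and 0, Tssk2 with 7 and 1, and Tekt2 with 6 and 1. For Tssk2 and Tekt2 both counts were near the floor. Of the 45, 39 had a higher level in caput 2 than in caput 1, though Acr, Tuba3a and Tsga8 were so by 1 or 2 reads. Of all genes with at least 5 CPM in a caput library 37.36% were higher. That share is not matched, since only 11 of the 45 reached this level. Of the 11 with at least 5 CPM in a caput library, 7 were at least 4-fold higher in caput 2, as were 0.488% of all genes at that level. By edgeR 22 of the list were tested. In caput against cauda 6 were higher and 4 lower, where 33.9% and 33% of all genes were. In caput against corpus 5 were higher and 3 lower, where 33.2% and 31.8% of all genes were, and in corpus against cauda 1 was higher and 1 lower, where 17.3% and 18% were, with median log2 fold changes of 0.41, 0.79 and -0.74 in that order (-0.38 for the last with genes at 0 in a region at their bound).

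**Figure D4:**
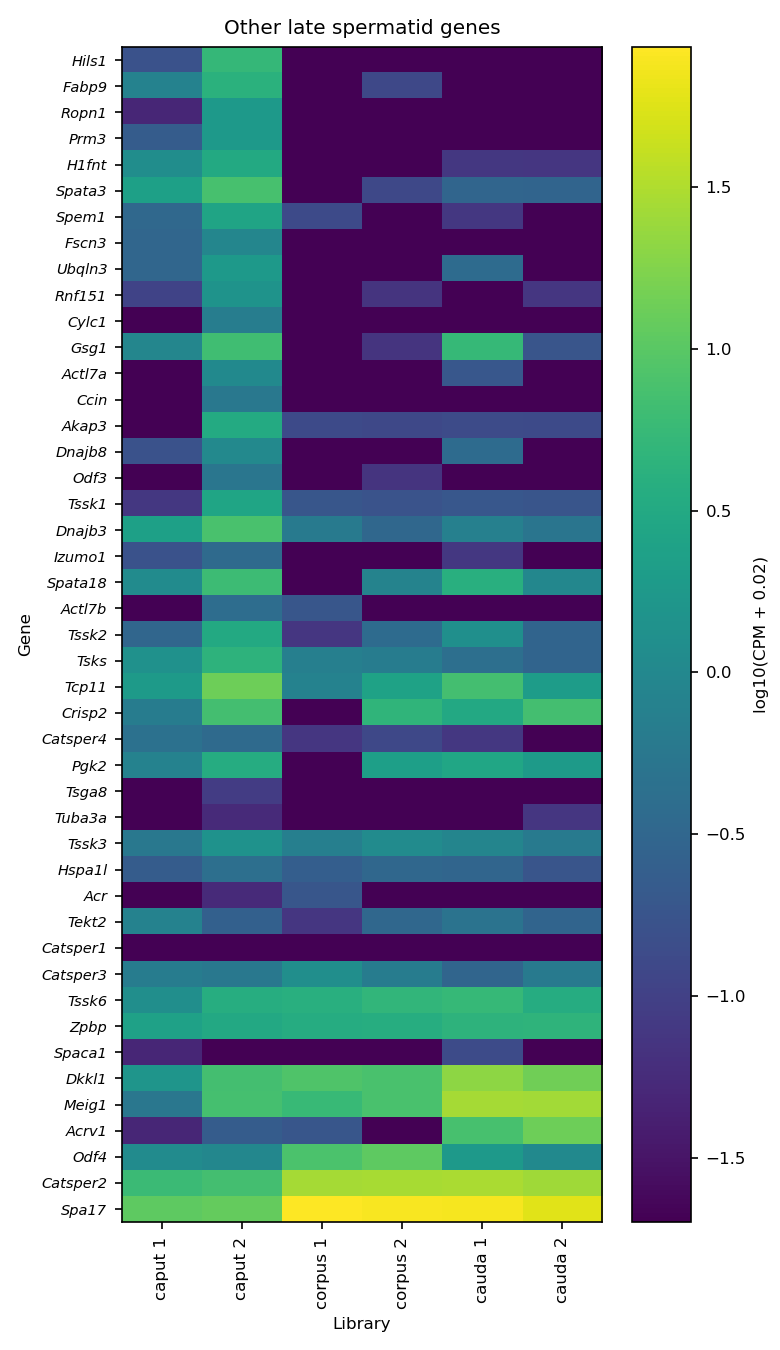
Level of the 45 other late spermatid genes (rows, ordered by caput 2 against the mean of the corpus and cauda libraries) in each library (columns), as log10(CPM + 0.02). Genes in the upper rows, such as Hils1 and Prm3, are high in caput 2 and dark in corpus and cauda, and Crisp2 and Pgk2 are dark in corpus 1 alone.

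Genes of earlier germ cells and of testis somatic cells had other patterns. Of 16 genes of earlier germ cells, such as spermatogonia and meiotic spermatocytes, 9 were higher in caput 2 than in caput 1. Of all genes with at least 5 CPM in a caput library, 37.36% were, but only 3 of the 16 reached that level. The list had a median fold of 1.07 over the 8 genes with reads in both. The summed level of the 16 was 35.9 and 39.7 CPM in caput 1 and 2, 95.1 and 96.0 CPM in corpus 1 and 2, and 18.2 and 20.4 CPM in cauda 1 and 2. Most of that came from Piwil2, a small RNA binding gene, Gfra1, a growth factor receptor gene, and the transcription factor gene Zbtb16. Sycp3 and Hormad1, of the meiotic chromosome axis, had at most 2 reads in any library. Others of the list differed by region or library. Spo11 had 87 and 93 reads in caput 1 and 2, 3 and 11 reads in corpus 1 and 2, and 0 in both cauda libraries. Dazl had 80 and 116 reads in cauda 1 and 2 and at most 2 in any other library. Mael had 68 reads in caput 2 and 0 in caput 1. By edgeR 8 of the 16 were tested. In caput against cauda 4 were higher and 1 lower, where 33.9% and 33% of all genes were. In caput against corpus 2 were higher and 3 lower, where 33.2% and 31.8% of all genes were. In corpus against cauda 4 were higher and 2 lower, where 17.3% and 18% of all genes were. The median log2 fold changes of the 8 were 1.33, -0.39 and 1.72 in that order (1.26 for the last with genes at 0 at their bound). Among 7 genes of testis somatic cells, Amh of Sertoli cells and Insl3 of Leydig cells had at most 3 reads in any library, and Fshr, Lhcgr and Hsd3b6 had none. Cyp17a1, a steroid-synthesising enzyme gene, was present at 31.6 and 23.2 CPM in caput 1 and 2, 256 and 316 CPM in corpus 1 and 2, and 20.6 and 20.8 CPM in cauda 1 and 2. Star, which brings cholesterol into mitochondria, had 22 to 205 reads. No part of these cells in the results was tested.

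The genes whose pattern over the 6 libraries was most like that of the summed 10 transcripts were found by distance. Over 19109 genes with at least 10 reads, log2(CPM + 0.5) was centred on its mean and the Euclidean distance to the summed members was taken. The nearest 8 named genes were Crisp2 (distance 1.69), Ccdc136 (2.12), Pgk2 (2.30), Chl1 (2.47), Dbil5 (2.68), Itih2 (2.71), Kctd17 (2.77) and Spata18 (2.79), and 5 predicted genes were passed over. Crisp2 had 22 and 207 reads in caput 1 and 2, 0 and 93 reads in corpus 1 and 2, and 53 and 129 reads in cauda 1 and 2. Among the members, Oaz3 was nearest to the sum (1.87) and Prm1 farthest (5.42). Distances to Prm1 and to Smcp, added after the values were seen, parted the members. From Prm1, Tnp2 lay at 0.906 (rank 3, with Prm1 itself as 1), Prm2 at 1.98 (rank 21), Akap4 at 2.41 (rank 47), Tnp1 at 2.80 (rank 125), Ldhc at 3.86 (rank 822) and Smcp at 8.41. Genes outside the lists were nearer to Prm1 than Prm2 was, such as the amino acid transporter gene Slc38a5 (1.47), Ly6g5b (1.62) and the lipocalin gene Lcn13 (1.64), so the pattern of Prm1 was not particular to spermatid genes. From Smcp, Oaz3 lay at 2.79 (rank 4), Odf1 at 4.18 (rank 11) and Prm1 at 8.41. Gapdhs was far from both, at 5.97 from Prm1 and 5.75 from Smcp.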

How the data were processed

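Per the labels' protocols, RNA of the sorted EGFP-positive cells was purified with a PicoRNA kit, turned into libraries with SMARTER v4 and sequenced on a HiSeq2500. The authors deposited unnormalised read counts per gene for each of the 6 libraries and an RPKM table. Per the submitters' processing notes STAR, HTSeq, edgeR and mm9 were used, with no versions and no statement on strand. The deposited RPKM values equal the deposited counts divided by gene length and library size, times 1 factor per library (0.774 to 1.387). Reads outside genes (6.67% to 9.48%), in several genes (1.39% to 1.83%) or without a unique position (33.11% to 38.59%), as percentages of all reads counted, were left out.

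The counts were fitted over all 6 libraries with region as the only term, by the quasi-likelihood test of edgeR 4.0.16 in R 4.3.3 with TMM scaling, filterByExpr and robust dispersions, leaving 3 residual degrees of freedom. P-values were adjusted by Benjamini-Hochberg over the 15816 genes that passed the filter and called under 0.05. Whether a region's libraries came from separate animals is not labelled, so p-values measure the spread between these samples, which may be technical. SE is the fold change divided by the root of F, an approximation. The procedure was tested on simulated data. Alternatives were DESeq2 1.42.0 and its size factors, library totals, 2 other filters, fits of 4 libraries, a replicate block and leaving out each library. All 10 members are named; likeness used at least 10 reads and a pseudocount of 0.5 CPM. Sequences are from RefSeq, GRCm38.p6, and opposite-strand neighbours from GENCODE M21, by name only. The members and lists were chosen with earlier results of these data known. A leukocyte marker is not reported here.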

Additional observations from a re-analysis of the deposited data

How the results depend on the processing

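Over 309 recomputed fold changes of members, 252 kept direction and side of the threshold, 29 lost and 17 gained the call, and 11 turned; the cause was not tested unless stated. Members called in caput against cauda (3) numbered 1 with no filter on low counts, 0 with only the 4 libraries compared and 0 to 6 with single libraries left out. Caput against corpus (3) gave 0 with no filter, 0 with only 4 libraries and 0 to 6; corpus against cauda (0) gave 1 by DESeq2 and 0 to 1. Fewer libraries in a fit leave fewer degrees of freedom, and a lone library is assumed to vary like the others.

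With library totals the log2 fold change in caput against cauda was 0.69 for Gapdhs (edgeR adjusted p = 0.0241) and 0.56 for Oaz3, and 4 members were called higher. In caput against corpus the log2 fold change was 0.23 for Smcp and 1.05 for Gapdhs (edgeR adjusted p = 0.00345). The medians of all genes moved to 0.89 and 0.63 in these comparisons. Calls higher and lower in caput then numbered 9498 and 2566 against cauda (5363 and 5218 with TMM) and 8436 and 2973 against corpus (5246 and 5029 with TMM). In corpus against cauda they were 5154 and 1736 (2742 and 2850 with TMM). With single libraries left out, log2 fold changes ran from -2.38 to 0.52 for Oaz3 in caput against cauda. In caput against corpus they ran from -2.74 to 6.03 for Odf1, -3.11 to 11.65 for Smcp and -1.53 to 5.46 for Oaz3. In corpus against cauda they ran from -13.06 to 0.15 for Smcp and -5.78 to 0.12 for Oaz3. The values of Smcp and Odf1 without corpus 2 are fitted against 0 reads and are neither sizes nor bounds.

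The labels share only the replicate numbers 1 and 2, too few pairs to show pairing (correlation of deviations 0.131 for caput with cauda, 0.181 for caput with corpus, 0.164 for corpus with cauda). With a replicate block, members called numbered 4, 4 and 1 in the 3 comparisons. In caput against cauda Odf1 was then called lower in caput (log2 fold change -2.74, adjusted p = 0.00737) and Tnp1 higher (adjusted p = 6.13e-05), and Prm2 was not called (0.0656). In caput against corpus Tnp1 joined (6.23e-05), and in corpus against cauda Odf1 was lower in corpus (-2.16, 0.0397). Of the 8 nearest genes 5 stayed with a pseudocount of 0.1.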
